A study of Mus musculus with 6 samples.

Results

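The 9 genes described here encode the proteins that make, degrade, carry and bind retinoic acid, the signalling form of vitamin A: Aldh1a1, Aldh1a2, Aldh1a3, Cyp26a1, Cyp26b1, Stra6, Rbp4, Crabp1 and Crabp2. They were taken by gene symbol, and each had a locus of its own among the 51997 named loci of the deposited expression tables. The tables hold bulk RNA-seq of mouse embryonic fibroblasts (MEFs, connective-tissue cells grown from the embryo), with 3 libraries labelled WT and 3 labelled Fbxw7 knockout (KO). Fbxw7 encodes the substrate-binding subunit of a ubiquitin ligase that marks proteins for degradation, and the comparison asks which transcripts differ in its absence. All 6 libraries came from cells kept in DMEM with 15% FBS and 1% NEAA (non-essential amino acids), and serum itself carries retinol. The labels name neither the deleted exon, the way the deletion was made, the strain, the age of the embryos nor whether the cells were a clone. Nor do they state that replicates were grown or collected separately. The p-values thus measure only the spread between these libraries, which may be technical.

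Retinol travels in blood on retinol-binding protein and enters some cells through the membrane receptor STRA6. In the cell it is oxidised reversibly to retinaldehyde by alcohol and short-chain dehydrogenases, then irreversibly to retinoic acid by the ALDH1A enzymes, and CYP26 enzymes hydroxylate retinoic acid to products that signal little. CRABP1 and CRABP2 bind retinoic acid in the cytosol, and CRABP2 delivers it to the nuclear receptors RAR and RXR, which act on target genes. In the embryo, neighbouring zones of synthesis and breakdown pattern the limb, hindbrain and trunk.

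Fbxw7 itself did not show the deletion at the level of the whole locus, at 29.3 ± 0.868 CPM in WT against 26.4 ± 1.97 CPM in KO (SD, n = 3 each), a log2 difference of -0.16 ± 0.10 (SE) with an edgeR adjusted p of 0.332. CPM is the estimated count scaled to a common library size after TMM normalisation, and a locus total does not show the loss of a short exon. KO therefore means the libraries so labelled. The deposited totals were 55720129 to 64198455 estimated fragments per library. Replicate 3 stood apart within each genotype: the median gene's chi-square between libraries was 6.43 times its sampling expectation for WT replicates 1 and 2 and 5.81 times for KO replicates 1 and 2, against 21.9 to 35.3 times for pairs with replicate 3. Values without these libraries are therefore given beside the results they touch, and leaving out both was chosen after seeing the data. The fibroblast markers with a locus of their own were all expressed (6 of 6 at 1 CPM or more), and of them Vim was lower in KO (3832 against 2152 CPM, adjusted p = 0.00972). Markers of other cell types that passed the test (edgeR adjusted p of 0.00185 to 0.0457) were Alb (0.253 against 9.83 CPM, WT against KO), the endothelial Kdr (5.58 against 0.708 CPM) and Tek (1.87 against 0.335 CPM), the adipocyte Fabp4 (2.27 against 0.781 CPM), the macrophage Cd68 (1.19 against 0.447 CPM) and the cartilage regulator Sox9 (43.3 against 27.7 CPM). Of the same lists, Pecam1, Cdh5, Adipoq, Adgre1, Afp and Col2a1 were at 0 or near it, and the macrophage receptor Csf1r was at 0.585 against 0.649 CPM (adjusted p = 0.838). The endothelial list summed to 6.46 to 9.27 CPM in WT against 0.619 to 1.42 CPM in KO, the leukocyte list to 1.5 to 2.26 and 0.633 to 1.36 CPM, and the cartilage list to 36.4 to 53.6 and 22.8 to 31.0 CPM. The epithelial, mesothelial, neural and muscle lists each summed to at most 4.05 CPM in any library. The part of these cells in the results below was not tested. Transcripts that differ by sex also moved with the labels: the locus holding Xist was at 1.47 CPM in WT against 911 CPM in KO, and the Y-linked Ddx3y at 95.9 and 30.4 CPM. Sex of the cells and genotype cannot be told apart here, and in bulk RNA fewer cells of a type and less RNA per cell cannot be told apart either.

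Among the 9 genes, Crabp2 and Rbp4 were higher in the KO libraries and none passed the test in the other direction. The filter on low counts kept 8 of the 9, leaving out Aldh1a2, and the edgeR quasi-likelihood test called 2 of these 8 higher and 0 lower at an adjusted p under 0.05. Over all 16787 tested genes it called 16.1%, with 8.03% higher and 8.08% lower in KO. At an unadjusted p under 0.05 the counts were 3 higher and 0 lower, the third gene being Cyp26b1. DESeq2, which also tested Aldh1a2, called 3 of 9 higher and 0 lower, where it called 17.6% of all genes. The 2 genotypes did not overlap for 2 of the 8 genes, against 37.7% of all tested genes. The log2 difference was above 0 for 6 of the 8, with a median of 0.71 against 0.01 over all tested genes. Rbp4 passed the count filter only through its KO libraries, so these counts describe the list and support nothing about it.

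**Figure D1:**
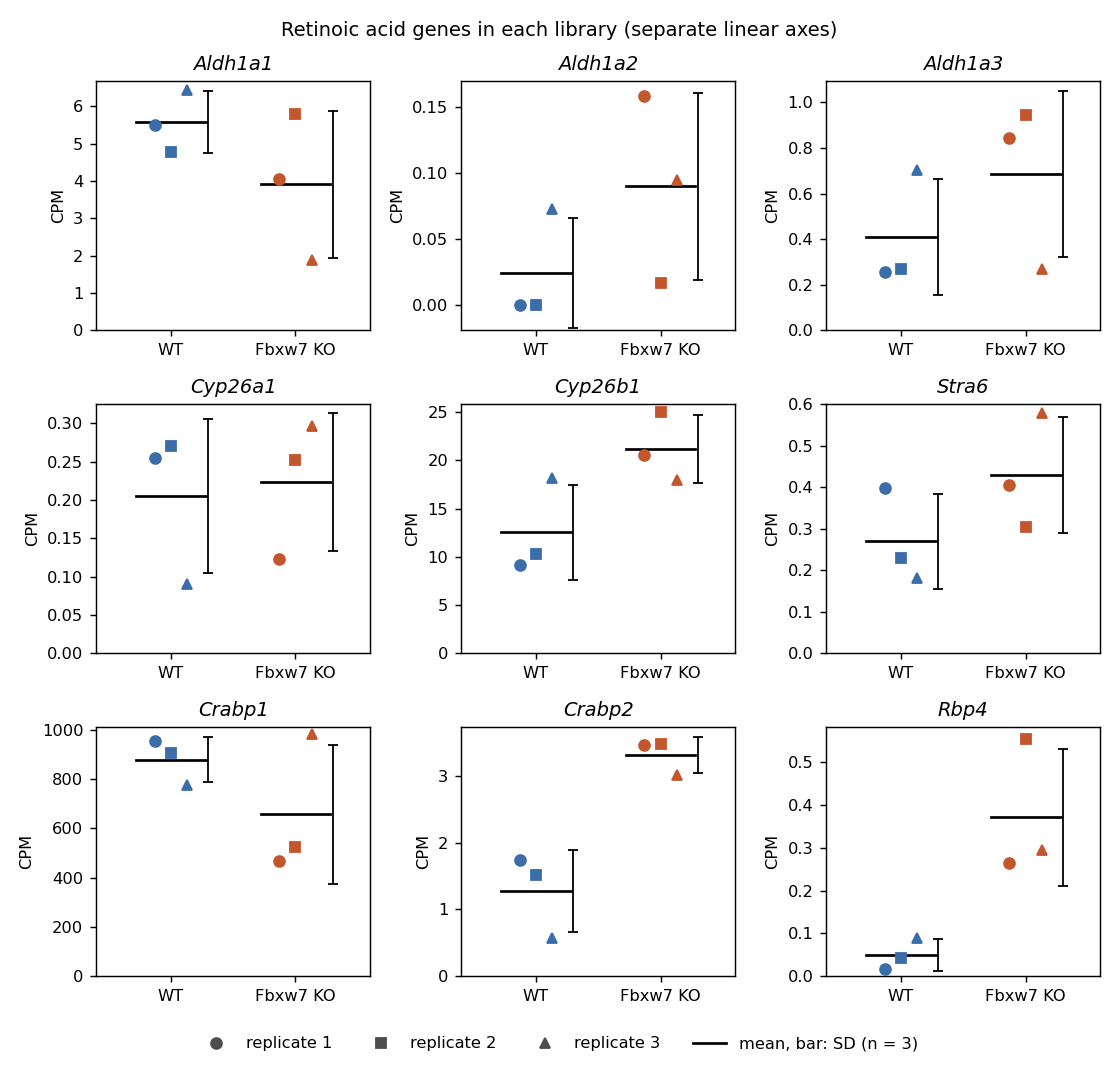
Level of each gene in the 6 libraries, in CPM on a separate linear axis for each panel (WT blue, Fbxw7 KO orange; symbols give the replicate number, the line the mean and the bar the SD, n = 3). Only Crabp2 and Rbp4 separate the genotypes completely, and replicate 3 lies away from replicates 1 and 2 in several panels.

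Per transcript length, Crabp1 stood far above the other 8 genes. Crabp1 was at 1476 ± 130 FPKM (the deposited fragment density, scaled to transcript length and library size) in WT and 1043 ± 414 FPKM in KO (SD, n = 3), rank 31 and rank 56 of the 27649 loci with an FPKM above 0 in any library. The next genes in order were Aldh1a1 at 4.02 ± 0.607 and 2.64 ± 1.64 FPKM, Cyp26b1 at 2.79 ± 1.14 and 4.57 ± 0.816 FPKM, and Crabp2 at 1.73 ± 0.812 and 4.33 ± 0.450 FPKM, WT before KO. Cyp26b1 overlapped both others in WT, where Crabp2 was below Aldh1a1 in every library, and the 3 overlapped in KO. Below 1 FPKM lay Aldh1a3 (0.208 and 0.263), Cyp26a1 (0.123 and 0.13), Stra6 (0.1 and 0.145), Rbp4 (0.0677 and 0.481) and Aldh1a2 (0.0111 and 0.0393). Neighbours in this order overlapped in WT. In KO, Rbp4 stood above Aldh1a3, Cyp26a1 and Stra6 in every library, whereas in WT its mean was below theirs.

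**Figure D2:**
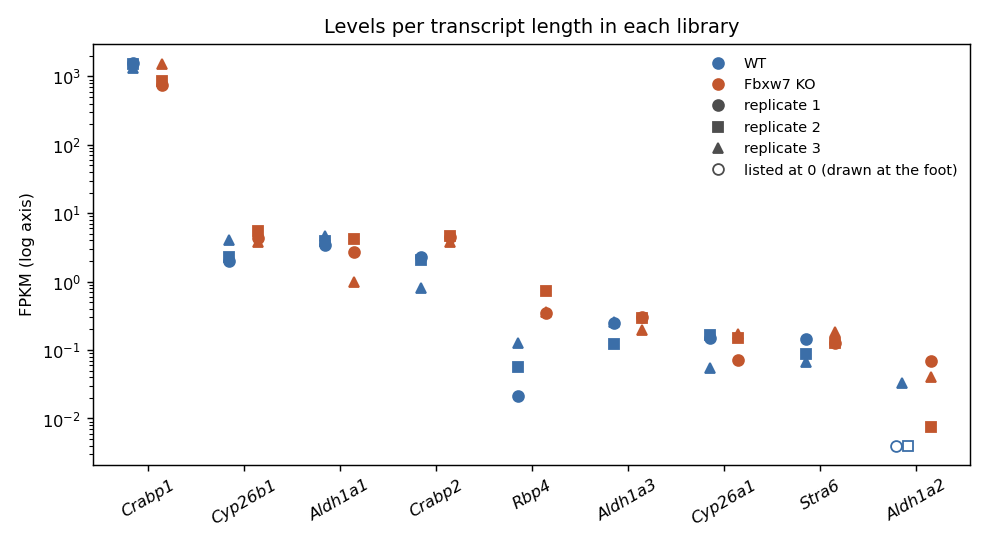
FPKM of the 9 genes in each library on a log axis, ordered by mean level; open symbols at the foot are libraries listed at 0. Crabp1 lies between 753 and 1564 FPKM in every library, while no other gene reaches 6 FPKM in any.

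Aldh1a1 made up most of the mRNA of the enzymes that synthesise retinoic acid, and neither it nor Aldh1a3 passed the test. Aldh1a1 (chromosome 19, 20492715 to 20643465, plus strand, GRCm38) was at 5.51, 4.79 and 6.45 CPM in WT replicates 1 to 3 and at 4.06, 5.81 and 1.88 CPM in KO replicates 1 to 3. KO replicate 3 was the lowest library and KO replicate 2 lay within the WT range, so the genotypes overlapped. The log2 difference was -0.51 ± 0.36 (SE; adjusted p = 0.384), and without replicate 3 of either genotype it was -0.06 ± 0.17. Aldh1a1 made up 93.3%, 97.0% and 94.2% of the summed Aldh1a1, Aldh1a2 and Aldh1a3 FPKM in WT, and 87.8%, 93.4% and 80.6% in KO. Its mRNA shares 151 of 2309 50-base windows (6.54%) with Aldh1a7, a near copy beside it on chromosome 19, so fragments from these stretches could have been split between them. Aldh1a7 fell from 0.943 to 0.152 CPM (adjusted p = 0.0162).

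Aldh1a3 (chromosome 7, 66390890 to 66427517, minus strand), the enzyme of the ventral eye and nasal region, was scarce. It was at 0.255, 0.271 and 0.705 CPM in WT (16, 13 and 39 fragments after removal of the library scaling) and at 0.844, 0.943 and 0.269 CPM in KO (48, 56 and 20 fragments). Replicates 1 and 2 were low in WT and high in KO, and replicate 3 had the opposite order. With all libraries the log2 difference was 0.75 ± 0.57 (adjusted p = 0.417), and without replicate 3 of both genotypes it was 1.78 ± 0.354 (adjusted p = 0.000713, in a comparison that called 41.3% of all genes). Aldh1a2 (chromosome 9, 71215789 to 71296243, plus strand), the main enzyme of the embryonic trunk mesoderm, fell under the count filter, with 0, 0 and 4 fragments in WT and 9, 1 and 7 in KO. A count of 0 allows up to 0.0477 CPM in WT replicate 1 and 0.0625 CPM in WT replicate 2 (counting error only), and KO replicate 2 lay at 0.0168 CPM. The main test did not cover Aldh1a2, and the alternatives without this filter that did cover it did not call it.

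Of the enzymes that break retinoic acid down, Cyp26b1 had most of the mRNA. Cyp26b1 (chromosome 6, 84571414 to 84593908, minus strand) clears retinoic acid in the limb bud and fetal gonad, among other sites. It was at 9.20, 10.2 and 18.2 CPM in WT and at 20.5, 25.0 and 18.0 CPM in KO. The KO libraries lay above WT replicates 1 and 2, but WT replicate 3 was level with KO replicate 3, so the groups overlapped. The log2 difference was 0.76 ± 0.26, at an unadjusted p of 0.0219 and an adjusted p of 0.0943 in edgeR, so it did not pass. DESeq2 placed it past the threshold (0.74, adjusted p = 0.0338), as did edgeR without WT replicate 3 (1.12, adjusted p = 0.00621, where 18.5% of genes were called). It also passed in edgeR without replicate 3 of both genotypes (1.23 ± 0.121, adjusted p = 4.45e-07), where 41.3% of genes were called. Cyp26b1 took 82.7%, 79.8% and 88.8% of the summed FPKM of Cyp26a1, Cyp26b1 and Cyp26c1 in the WT libraries, and 92.8%, 92.6% and 90.8% in the KO libraries.

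Cyp26a1 (chromosome 19, 37697798 to 37701536, plus strand) is a family member whose transcription retinoic acid itself induces, through response elements before its start. Its promoter is shown for that reason, since its mRNA is a common readout of retinoic acid signalling. Retinoic acid receptors bind direct repeats of a 6-base motif, searched here in the form AGGTCA, and likewise with the variant form AGTTCA, while a further accepted spelling was GGGTCA and the last accepted spelling was GGTTCA. Any of these spellings had to be followed by any of them on the same strand after 1, 2 or 5 bases, and both strands were searched. In the RefSeq promoter table (GRCm38.p6, 250 bases before to 50 after each start), 7 of the 9 genes had an entry, and Cyp26a1 was the only one of them with such a repeat. The repeat with 5 bases between stood on the minus strand, and it was present in 32 of 32851 promoter windows (0.0974%). The repeats with 1 and 2 bases between were present in 0.222% and 0.268% of windows. The promoter stretch printed spans chr19:37697558-37697797 on the plus strand, and its capitals mark the repeat as read on that strand.
Cyp26a1 promoter: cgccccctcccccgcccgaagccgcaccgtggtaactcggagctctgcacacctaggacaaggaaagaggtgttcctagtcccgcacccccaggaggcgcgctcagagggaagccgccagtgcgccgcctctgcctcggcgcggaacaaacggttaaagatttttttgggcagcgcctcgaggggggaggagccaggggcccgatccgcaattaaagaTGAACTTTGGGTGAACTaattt
Read on its own strand the repeat is set out here beside the repeat found in the promoter of Rarb, the receptor gene known for induction by retinoic acid (chr14:16575513-16575529, minus strand, the strand of the gene). Capitals mark the 6-base motifs and lower case the 5 bases between.
Cyp26a1 repeat: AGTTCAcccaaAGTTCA
Rarb repeat: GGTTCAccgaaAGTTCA
A match is a description of the letters, and no binding was measured.

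Both genes with this repeat were scarce in all 6 libraries. Cyp26a1 was at 0.255, 0.271 and 0.0903 CPM in WT (16, 13 and 5 fragments) and at 0.123, 0.253 and 0.296 CPM in KO (7, 15 and 22 fragments). The ranges overlapped almost fully, with WT replicate 3 the lowest library and KO replicate 3 the highest. The log2 difference was 0.11 ± 0.51 (adjusted p = 0.910), and its sign turned without replicate 3 of WT (-0.23), of KO (-0.14) or of both (-0.47). Rarb was at 0.144, 0.25 and 0.181 CPM in WT and at 0.370, 0.322 and 0.108 CPM in KO (adjusted p = 0.589). At these counts a moderate difference in either direction was not detectable.

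Rbp4 had the largest fold difference of the 8 tested genes, on few fragments. Rbp4 (chromosome 19, 38116629 to 38125281, minus strand), the plasma carrier of retinol made mainly by liver and fat, was at 0.0159, 0.0417 and 0.0903 CPM in WT (1, 2 and 5 fragments) and at 0.264, 0.556 and 0.296 CPM in KO (15, 33 and 22 fragments). All 3 KO libraries lay above all 3 WT libraries. The means differed 7.54-fold (8 against 70 fragments in all), and the fitted log2 difference was 2.69 ± 0.60 (adjusted p = 0.0218). No WT library reached 10 estimated fragments and all 3 KO libraries did, so the gene could enter the test only if it differed. The edgeR call was lost without WT replicate 1 (adjusted p = 0.0759), WT replicate 2 (0.0887) or KO replicate 2 (0.0785). Without replicate 3 of both genotypes the log2 difference was 3.53 ± 0.716 (adjusted p = 0.000825), where 41.3% of all genes were called.

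The level of a liver marker list differed in the same direction as Rbp4. The summed level of the 6 liver markers was 0.126 to 0.625 CPM in WT against 7.04 to 16.1 CPM in KO, and Alb made up most of it in KO, at 0.414, 0.292 and 0.0542 CPM in WT against 7.58, 6.45 and 15.5 CPM in KO (adjusted p = 0.00185). Apoa2, in CPM at or above Alb in WT replicates 2 and 3, was at 0.175 CPM in WT against 0.502 CPM in KO (adjusted p = 0.113). Ttr, whose protein carries RBP4 in plasma, and Fgb were at 0 in every library, and Afp had 1 fragment in all. The 4 adipocyte markers summed to 1.64 to 3.02 CPM in WT against 0.510 to 1.12 CPM in KO, with Cidec at 0. The part of other cell types in the Rbp4 difference was not tested.

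Stra6 (chromosome 9, 58063788 to 58153996, plus strand), the receptor that takes retinol from RBP4, was at 0.398, 0.229 and 0.181 CPM in WT (25, 11 and 10 fragments). It was at 0.404, 0.303 and 0.579 CPM in KO (23, 18 and 43 fragments). The KO values began above 2 of the WT values, but the ranges overlapped and the log2 difference of 0.66 ± 0.42 did not pass (adjusted p = 0.321). It was 1.06 without WT replicate 1, 0.39 without KO replicate 3 and 0.17 ± 0.445 without replicate 3 of both genotypes, none past the threshold. The locus overlaps Ccdc33 on the other strand and the transcript Gm16131, and the strand used in counting is not given in the sources used here, so Stra6 fragments are uncertain.

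Of the cytosolic binding proteins, Crabp2 was higher in KO, while Crabp1 was lower in 2 of the 3 KO libraries and did not pass the test. The first coding bases of the genes are shown because their mRNAs are related, with capitals at the bases that differ (GENCODE M21 coding exons on GRCm38; Crabp1 within chr9:54764902-54765562 and Crabp2 within chr3:87948841-87952194, both on the plus strand, with the intron removed).
Crabp1 coding start: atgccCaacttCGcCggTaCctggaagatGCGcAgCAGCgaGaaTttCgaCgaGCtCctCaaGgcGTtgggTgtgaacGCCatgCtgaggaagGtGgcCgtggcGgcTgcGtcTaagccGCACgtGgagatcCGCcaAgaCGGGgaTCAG
Crabp2 coding start: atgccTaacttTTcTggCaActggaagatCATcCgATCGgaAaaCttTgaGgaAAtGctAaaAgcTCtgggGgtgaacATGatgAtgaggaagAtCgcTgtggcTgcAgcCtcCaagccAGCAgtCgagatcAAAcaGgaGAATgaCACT
These 150 bases differ at 54 positions (64.0% identical), and no 50-base window of the Crabp1 mRNA (0 of 753) recurs in that of Crabp2. Exact matches of that length to both mRNAs were therefore absent. Matches with mismatched bases were not searched, so their effect on Crabp2, given the gap in level between the genes, was not tested.

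Crabp2 (chromosome 3, 87948666 to 87953376) was at 1.73, 1.52 and 0.578 CPM in WT (109, 73 and 32 fragments) and at 3.46, 3.47 and 3.0 CPM in KO (197, 206 and 223 fragments). The KO libraries were close together and all lay above the WT libraries, of which WT replicate 3 was the lowest. The means were 1.28 ± 0.615 and 3.31 ± 0.268 CPM, a log2 difference of 1.37 ± 0.37 (adjusted p = 0.0433 in edgeR, 0.00188 in DESeq2). The edgeR call sat close to the threshold: it was lost without WT replicate 1 (adjusted p = 0.0631), WT replicate 2 (0.0982), KO replicate 1 (0.122), KO replicate 2 (0.110) or KO replicate 3 (0.0580), with log2 differences of 1.34 to 1.65. It was also lost with replicates 1 and 2 of each genotype summed (0.189). Without replicate 3 of both genotypes the log2 difference was 1.09 ± 0.184 (adjusted p = 0.000161), where 41.3% of all genes were called.

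Crabp1 (chromosome 9, 54764748 to 54773110, plus strand) was at 954, 904 and 776 CPM in WT and at 466, 524 and 981 CPM in KO. KO replicates 1 and 2 were below every WT library, whereas KO replicate 3 was above them all. In FPKM, KO replicate 3 (1517) lay below WT replicates 1 (1564) and 2 (1536) and above WT replicate 3 (1327). This locus alone took 0.0929%, 0.0864% and 0.0753% of all estimated fragments in WT and 0.0474%, 0.0535% and 0.104% in KO, where replicate 3 again had the highest share. The log2 difference was -0.42 ± 0.27 (adjusted p = 0.335). Without KO replicate 3 it was -0.83 ± 0.123 (adjusted p = 0.00521, in a comparison calling 19.1% of genes). Without replicate 3 of both genotypes it was -0.91 ± 0.0843 (adjusted p = 2.21e-07, in a comparison calling 41.3% of genes). The gene had 146322 fragments in WT and 130475 in KO after removal of the library scaling, so counting error was small beside the spread between libraries.

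**Figure D3:**
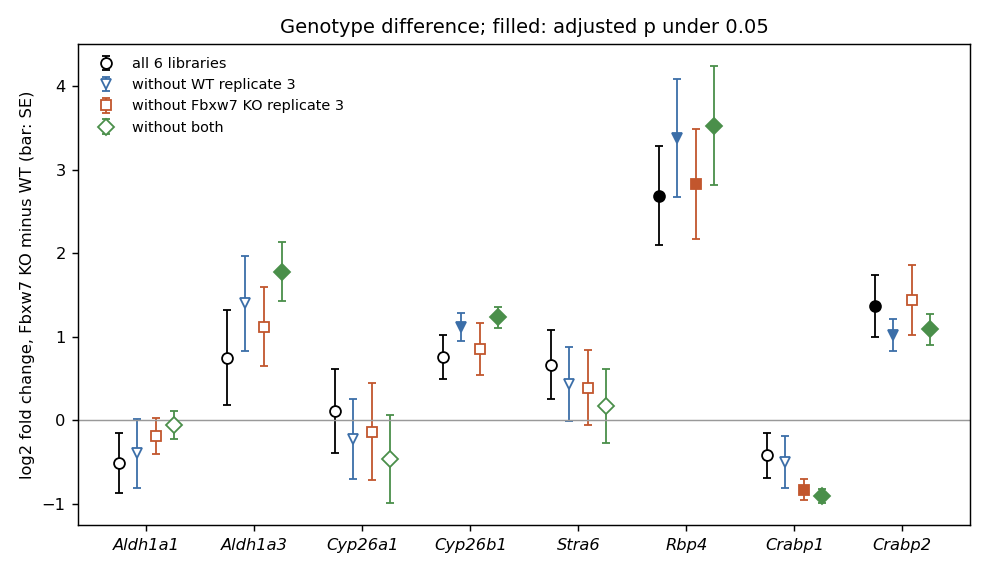
Log2 difference (KO minus WT, bar: SE) of the 8 tested genes with all 6 libraries, without replicate 3 of WT, without replicate 3 of KO and without both; filled symbols have an adjusted p under 0.05. Cyp26a1 changes sign. The WT and KO libraries of Crabp2 and Rbp4 do not overlap, so leaving out libraries could not turn their direction. Crabp1, Cyp26b1 and Aldh1a3 pass with replicate 3 of both genotypes left out, where 41.3% of all genes pass.

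Set against each other within a library, these genes gave ratios that did not need scaling between libraries. The summed Aldh1a FPKM divided by the summed Cyp26a1 and Cyp26b1 FPKM was 1.73, 1.65 and 1.19 in WT and 0.681, 0.814 and 0.301 in KO. The Aldh1a sum thus exceeded the sum of Cyp26a1 and Cyp26b1 in the 3 WT libraries and was below it in the 3 KO libraries, with replicate 3 the lowest of each genotype. Cyp26c1, at a mean of 0.38 FPKM in WT and 0.258 FPKM in KO, was left out of this ratio. The ratio of Crabp1 to Crabp2 FPKM was 679, 738 and 1663 in WT and 166, 185 and 398 in KO, again without overlap, and here replicate 3 was the highest of each genotype. Taken singly, 37.7% of all tested genes also showed no overlap in CPM. These ratios were put together after the levels were known, so they are given as a description with no test, and mRNA ratios are not enzyme activities.

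**Figure D4:**
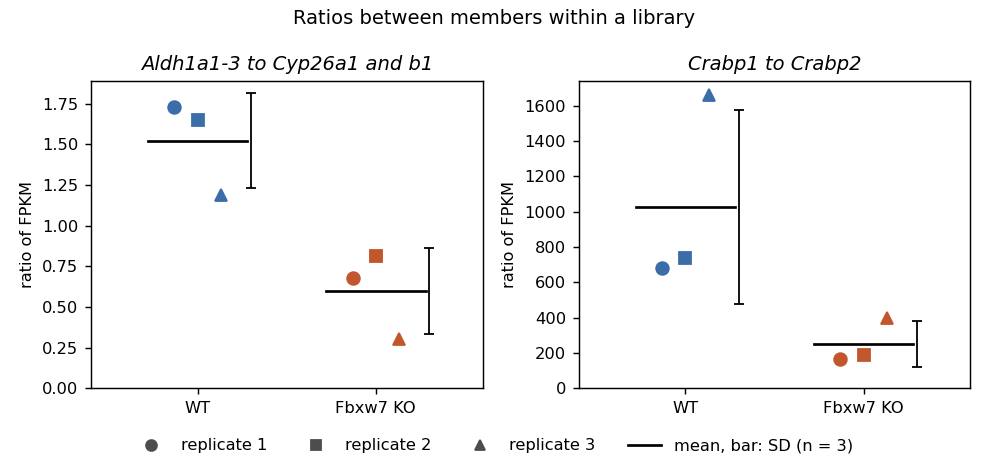
Ratio of summed Aldh1a1, Aldh1a2 and Aldh1a3 to summed Cyp26a1 and Cyp26b1 FPKM (left) and of Crabp1 to Crabp2 FPKM (right) in each library, with the mean and SD (n = 3) of each genotype on linear axes from 0. The WT and KO libraries do not overlap in either panel, and replicate 3 lies at the edge of its genotype.

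Upstream and downstream of the 9 genes, 57 other retinoid genes were listed in 6 groups by role, of which 50 had a locus of their own and 37 passed the count filter. Of these 37, edgeR called 3 higher and 5 lower in KO (21.6%, against 16.1% of all tested genes), with a median log2 difference of -0.08. The groups were listed with earlier results of these data known, so these shares are a description. The calls fell in 2 groups, the enzymes that interconvert retinol and retinaldehyde and the genes known to respond to retinoic acid.

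Retinol oxidation and reduction held most of the lower calls: of 10 tested genes, 4 were lower and 1 was higher in KO, with a median log2 difference of -0.19. Over all tested genes, 8.08% were called lower and 8.03% higher. The list was chosen with earlier results of these data known, so its counts are a description and support nothing about the pathway. Dhrs3, the reductase that returns retinaldehyde to retinol and is itself induced by retinoic acid, was at 12.6, 14.4 and 13.9 CPM in WT against 5.24, 6.06 and 5.59 CPM in KO. It fell by 1.28 ± 0.13 on the log2 scale (adjusted p = 0.000977), with tight, separate groups. Adh7, a class IV alcohol dehydrogenase active on retinol, was at 139, 129 and 85.3 CPM in WT against 18.6, 17 and 40.6 CPM in KO. Its log2 difference was -2.21 ± 0.35 (adjusted p = 0.00628), the largest of the 5 lower calls. Adh1, the class I enzyme that also clears excess retinol, fell from 28.4 ± 9.33 to 9.59 ± 1.53 CPM (log2 -1.56 ± 0.26, adjusted p = 0.00702). Rdh11, a reductase of retinaldehyde, fell from 79.9 ± 10.9 to 45.5 ± 2.64 CPM (log2 -0.81 ± 0.12, adjusted p = 0.00450). These 4 calls held when any 1 library was left out. With replicates 1 and 2 summed, those of Adh7 (adjusted p = 0.110), Adh1 (0.0857) and Rdh11 (0.0842) were lost, and Adh7 also missed the threshold with no count filter (0.0574), with limma on log2(FPKM + 1) (0.0506) and with limma on unfiltered log2(FPKM + 0.1) (0.0524). Dhrs9, named after its values were seen, rose from 12.6 ± 4.07 to 25.1 ± 1.72 CPM (log2 0.99 ± 0.21, adjusted p = 0.0198), and its call was lost without WT replicate 1 (adjusted p = 0.0664), WT replicate 2 (0.0807), KO replicate 1 (0.0759) or KO replicate 2 (0.0544), with replicates 1 and 2 summed (0.162) and with limma on unfiltered log2(FPKM + 0.1) (0.071). Rdh13, Rdh5, Rdh1, Rdh9 and Rdh16 shared their loci with other genes and were not used.

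None of the storage, carrier or further oxidation genes passed in edgeR or DESeq2, nor did any at an unadjusted p under 0.05 (0 of 3, 0 of 2 and 0 of 2 tested in edgeR). For storage, the lipase Lpl was at 216 ± 83.5 CPM in WT against 233 ± 43.4 CPM in KO, the acyltransferase Dgat1 at 17.6 ± 0.499 and 19.4 ± 2.03 CPM, and Lrat, the main retinol-esterifying enzyme, was under the filter. Among carriers, Fabp5, which hands retinoic acid to another nuclear receptor, PPARD, was at 11.9, 10.4 and 12.4 CPM in WT against 5.98, 5.83 and 12.4 CPM in KO. It was below WT in KO replicates 1 and 2 and at the top of the WT range in KO replicate 3 (log2 -0.52 ± 0.29, adjusted p = 0.267). The cytochrome Cyp1b1 was at 461 ± 215 CPM in WT against 722 ± 271 CPM in KO, and Cyp26c1 at 0.618 ± 0.154 and 0.435 ± 0.0509 CPM.

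The receptors were detected in both genotypes, but Rarb (0.192 CPM in WT and 0.267 CPM in KO) and Rxrg (0.596 and 0.387 CPM) were scarce. Rxrg, named after its values were seen, had 5, 7 and 71 fragments in KO replicates 1 to 3. Of the 12 receptor and cofactor genes, 0 passed in edgeR or DESeq2 (median log2 difference -0.10). At an unadjusted edgeR p under 0.05 there was 1, Rxrb, also named after its values were seen, at 37.6 and 45.9 CPM. Rarg was the most abundant of the retinoic acid receptors, at 122 ± 10.1 CPM in WT against 115 ± 6.27 CPM in KO, or 45.0 and 42.4 FPKM. Rara was at 28.7 ± 2.70 and 31.7 ± 3.56 CPM, or 10.6 and 11.3 FPKM. The corepressor Ncor1 was at 208 ± 15.5 and 180 ± 8.98 CPM, or 52.7 and 44.7 FPKM.

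Of 11 tested genes known to be induced by retinoic acid, a list that leaves out the 9 genes above, 2 were higher and 2 lower in KO. Their median log2 difference was -0.06, and 8.03% and 8.08% of all tested genes were called in these directions. Tgm2, a transglutaminase, was at 6.90, 8.0 and 8.48 CPM in WT against 32.6, 34.6 and 26.5 CPM in KO. It rose by 2.0 ± 0.15 on the log2 scale (adjusted p = 0.000281) and passed under each of the 19 alternatives. Rarres2, which encodes the chemoattractant chemerin, was at 2.08, 1.68 and 1.23 CPM in WT against 7.98, 9.13 and 3.35 CPM in KO. Its log2 difference was 2.04 ± 0.39 (adjusted p = 0.0124), and the call was lost without WT replicate 2 (adjusted p = 0.0551) or KO replicate 1 (0.0505), with replicates 1 and 2 summed (0.122) and with limma on log2(FPKM + 1) (0.0633) or unfiltered log2(FPKM + 0.1) (0.0814). Hoxb4, a homeobox gene of the hindbrain and trunk, fell from 28.6 ± 0.838 to 18.3 ± 1.49 CPM (log2 -0.65 ± 0.10, adjusted p = 0.00663), a call lost with replicates 1 and 2 summed (0.111). Dhrs3 is the other lower gene of the group. Cyp26a1 and Rarb, which carry the repeat set out above, showed no call.

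**Figure D5:**
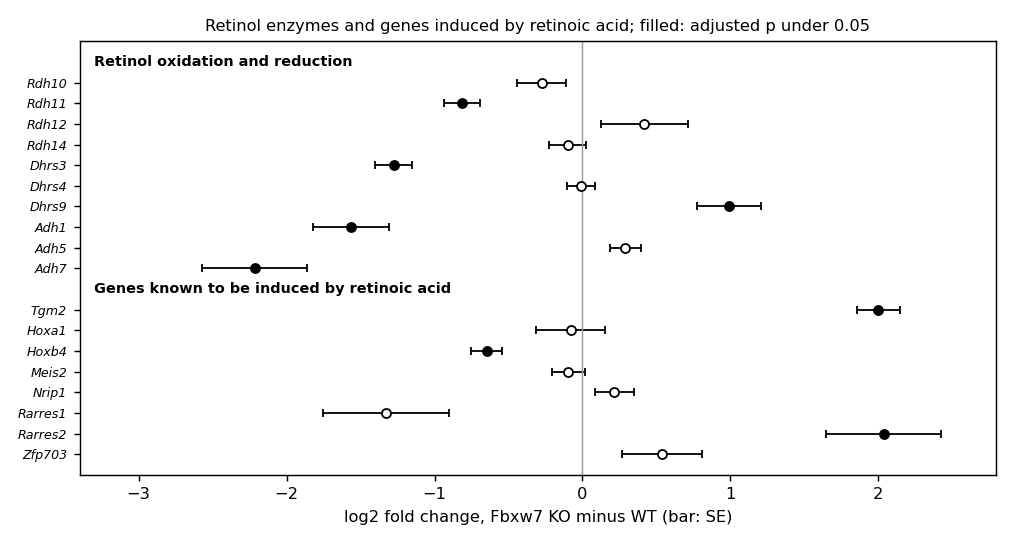
Log2 difference (KO minus WT, bar: SE) of 18 tested genes in the 2 groups that held a call, leaving out genes that also stand in another group and drawing Dhrs3 once; filled symbols have an adjusted p under 0.05. The 8 filled symbols are Rdh11, Dhrs3, Dhrs9, Adh1 and Adh7 among the retinol enzymes and Tgm2, Hoxb4 and Rarres2 among the induced genes.

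For the 3 tested genes of the 9 with the smallest adjusted p, the genes most alike over the 6 libraries were found among 11009 tested genes with a mean of at least 5 CPM, by Euclidean distance between centred log2(CPM + 0.5) profiles. No neighbours are given for Rbp4, since all but 1 of its 6 values lay under the 0.5 added before the logarithm. The profile of Crabp2 was nearest to a locus shared by Gbp10, Gbp6 and Gm43302 (0.167), to Spats2l (0.248) and to a locus shared by Islr and Islr2 (0.252). The 0.5 added also narrowed the Crabp2 profile, whose WT values were 0.578 to 1.73 CPM. Its fitted log2 difference of 1.37 was above those of the 3 loci (1.04, 1.23 and 1.14). Cyp26b1 was nearest to Nt5dc2 (0.254), Mcm2 (0.277) and Cyr61 (0.293). These distances rest on 6 libraries and are a description.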

How the data were processed

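Per the labels' protocols, Trizol and RNeasy RNA went into Illumina TruSeq libraries (6 in all). The submitters' processing notes name TopHat2 2.1.1, SAMtools 1.5, deepTools and Cufflinks 2.2.1 with build mm10. Annotation and strand setting are not given in the sources used here. Estimated counts per locus, already scaled between libraries, and FPKM were deposited as separate tables. Each library's values were checked to be whole multiples of 1 step for 88.9 to 89.5% of values up to 1000 (tolerance 0.05), and division by that step gave the unscaled fragments printed. Loci without a name (1317) held at most 3.13e-05% of a library and were left out, as were 9 named loci that Cufflinks marked as too deep to estimate (HIDATA), per the deposited table.

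Estimated counts were rounded and tested with edgeR 4.0.16 (R 4.3.3): filterByExpr with a minimum count of 10, TMM, robust quasi-likelihood fit on genotype over all 6 libraries, and Benjamini-Hochberg adjustment over 16787 genes. The same test was first run on simulated data. Levels between genes were compared only by FPKM. Alternatives used DESeq2 1.42.0, limma 3.58.1, other scalings and filters, and left-out libraries. Gene positions are from GENCODE M21, promoter sequences from the RefSeq table (GRCm38.p6), read with Python 3.11.15.

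The text names all 9 genes, Fbxw7, and of each pathway list up to 4 called genes, by smallest adjusted p. Lists without a call are represented by their 2 most abundant genes, as far as these are reported here. The 9 genes and the lists were chosen with earlier results of these data known. Genes sharing a locus were not used.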

Additional observations from a re-analysis of the deposited data

How the results depend on the processing

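Of all genes, 2705 passed the threshold; leaving out 1 library in turn gave 1169 to 3282 calls. Summing replicates 1 and 2 of each genotype gave 478, limma on log2(FPKM + 1) 1562, on log2(FPKM + 0.1) 1615 with the filter on mean FPKM and 1386 without it, and leaving out replicate 3 of both genotypes, chosen after the data were seen, 6993. Library size alone as the scaling moved the share of calls that were higher in KO from 49.8% to 65.7% (1968 higher, 1026 lower) and the median log2 difference of all genes from 0.01 to 0.10; limma on log2(FPKM + 1) gave 37.6%. Of the 9 retinoid genes, 2 passed, and 0 to 3 did with 1 library left out, 1 with a minimum of 1 CPM in 3 libraries, 0 with replicates 1 and 2 summed, 1, 0 and 1 under the 3 limma settings in the order above, and 5 (4 higher, 1 lower) without replicate 3 of both genotypes. Of the other pathway genes, 8 passed, and 6 to 12 did with 1 library left out, 2 with replicates 1 and 2 summed, 5 with limma on unfiltered FPKM and 20 (9 higher, 11 lower) without replicate 3 of both. The sign of Cyp26a1 turned without WT replicate 3 (-0.23), without KO replicate 3 (-0.14) and without both (-0.47), and with 1 library left out it ranged from -0.23 to 0.40. No other of the 8 tested genes changed sign under the 16 to 19 alternatives that gave it a value, nor did any of the 8 called pathway genes under 19. For Crabp2, Rbp4 and these 8 pathway genes the genotypes did not overlap, so leaving out libraries could not turn the sign. Crabp2 also lost its call with replicates summed (adjusted p = 0.189), and under limma with a pseudocount of 0.1 (0.0508 filtered, 0.0977 unfiltered), and Rbp4 with replicates summed (0.123). The causes were not tested.

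Libraries with the same replicate number were weakly alike across genotypes: their deviations from the genotype means correlated at 0.0486, 0.149 and 0.111 over genes. Libraries with unlike numbers correlated at -0.178 to 0.13. Every library except KO replicate 1 correlated best with its own number, and KO replicate 1 did so with WT replicate 2. These values do not settle whether the libraries were paired. With the replicate number as a block, 2356 of all genes, 2 retinoid genes and 9 pathway genes passed, with Crabp2 at an adjusted p of 0.0398 and Rbp4 at 0.0391. Aldh1a2, Aldh1a3, Cyp26a1, Rbp4 and Stra6 had at most 124 fragments each in a genotype, and depth limits the precision of their values.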
